A study of Mus musculus with 2 samples.

Results

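The 10 genes described here, *Foxp3*, *Icos*, *Ctla4*, *Il2ra*, *Cd4*, *Cd8a*, *Gzmb*, *Ifng*, *Il17a* and *Trdc*, are genes by which regulatory, helper, cytotoxic, IL-17-producing and γδ T cells are told apart, and they were 10 of the 32285 genes counted. They were followed in barcodes with a unique molecular identifier (UMI, the tag of 1 captured transcript copy) of at least 2 of *Cd3d*, *Cd3e*, *Cd3g*, *Trac* and *Trbc2*, the genes of the T cell receptor complex. These T cell barcodes numbered 205 of 6547, and the other 6342 barcodes served for comparison. The study asked how Dectin-1, the β-glucan receptor encoded by *Clec7a*, acts in colorectal tumorigenesis, and single-cell RNA-seq was done on cells from colorectal polyps of mice given azoxymethane and then 3 cycles of 1% dextran sodium sulfate. The WT and the *Clec7a*-/- library came from C57BL6/J mice labelled as 26 weeks old, with the treatment given as 16 weeks. The cells were sorted for CD11b and CD11c, surface proteins of myeloid cells, so the T cells described here are those that came through a myeloid sort and not the T cells of the polyps at large. Cells of several mice were pooled into 1 library per genotype, so there was no replicate and no test was run. The intervals in parentheses are 95% intervals for counting error only, exact binomial for shares, exact Poisson for levels and exact conditional for ratios. A level is the UMIs of a gene per 1000000 UMIs of the same barcodes (CPM), and a log2 ratio set the *Clec7a*-/- over the WT library unless stated otherwise.

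The T cell receptor is an αβ or a γδ heterodimer that signals through the CD3 chains, with *Trac*, *Trbc1* and *Trbc2* encoding constant regions of the former and *Trdc* that of the δ chain. *Foxp3* is the lineage-defining transcription factor of regulatory T cells, which hold immune responses in check and are abundant in the colon. ICOS is a costimulatory receptor, CTLA-4 an inhibitory receptor that competes for the same ligands as CD28. *Il2ra* encodes CD25, the subunit that gives the IL-2 receptor its high affinity. CD4 and CD8α are the coreceptors for MHC class II and class I. Granzyme B is a protease of cytotoxic granules, interferon-γ is the signature cytokine of type 1 responses, and IL-17A is that of type 17 responses and of many γδ T cells at mucosal surfaces.

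The 250 bases before the RefSeq start site (GRCm38.p6) were read for the 7 members for which the promoter table had an entry, and 4 of them are shown because the results below set them apart: *Ctla4* was found more often in barcodes with *Foxp3*, *Gzmb* was found with and without *Foxp3*, and *Il17a* was found together with *Foxp3* in 1 barcode. *Foxp3* (chrX:7580233-7580482 (plus strand), the second of 2 start sites in the table and the one whose window holds no annotated exon of the gene), *Ctla4* (chr1:60908775-60909024 (plus strand)), *Gzmb* (chr14:56262335-56262584 (minus strand)) and *Il17a* (chr1:20730655-20730904 (plus strand)) are given 5′ to 3′ on the strand of the gene, with matches to 3 searched motifs in capitals.
Foxp3: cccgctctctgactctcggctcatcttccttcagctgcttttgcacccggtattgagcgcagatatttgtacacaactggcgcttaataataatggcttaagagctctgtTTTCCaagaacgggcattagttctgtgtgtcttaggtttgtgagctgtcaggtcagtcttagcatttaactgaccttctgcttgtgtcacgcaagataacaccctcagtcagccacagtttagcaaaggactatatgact
Ctla4: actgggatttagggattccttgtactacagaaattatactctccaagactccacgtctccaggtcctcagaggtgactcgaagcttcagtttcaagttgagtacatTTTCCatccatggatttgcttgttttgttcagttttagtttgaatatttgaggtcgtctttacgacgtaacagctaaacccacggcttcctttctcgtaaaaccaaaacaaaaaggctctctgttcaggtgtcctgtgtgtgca
Gzmb: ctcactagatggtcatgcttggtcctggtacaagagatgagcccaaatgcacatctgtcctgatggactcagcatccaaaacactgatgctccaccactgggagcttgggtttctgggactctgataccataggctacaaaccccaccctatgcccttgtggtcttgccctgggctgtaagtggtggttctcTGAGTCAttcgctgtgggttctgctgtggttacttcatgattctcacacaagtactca
Il17a: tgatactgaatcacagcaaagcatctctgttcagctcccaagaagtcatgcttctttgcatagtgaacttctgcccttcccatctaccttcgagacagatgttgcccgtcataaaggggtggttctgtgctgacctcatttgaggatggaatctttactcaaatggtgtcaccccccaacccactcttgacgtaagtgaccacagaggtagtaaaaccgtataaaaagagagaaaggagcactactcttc
The motifs were GGAAA (the core bound by NFAT, a factor of T cell receptor signalling), TGACTCA (AP-1) and TGTTTAC (forkhead factors, the family of *Foxp3*), each searched on both strands. *Foxp3* and *Ctla4* each held 1 NFAT core, *Gzmb* held 1 AP-1 match, and *Il17a* held none of the 3. Of all 32851 promoter windows, 55.6% held the NFAT core, 4.46% the AP-1 motif and 3.17% the forkhead motif, so the first match is one that most promoters share. The matches are letters in a window and were not measured as binding. In GRCm38 the regulatory genes lie with *Foxp3* at chrX:7573644-7595245 (plus strand), *Icos* at chr1:60977927-61000320 (plus strand), *Ctla4* at chr1:60887000-60915832 (plus strand) and *Il2ra* at chr2:11642807-11693193 (plus strand), and the coreceptor genes with *Cd4* at chr6:124864692-124888221 (minus strand) and *Cd8a* at chr6:71373427-71379173 (plus strand). The effector genes lie with *Gzmb* at chr14:56258838-56262260 (minus strand), *Ifng* at chr10:118441046-118445892 (plus strand), *Il17a* at chr1:20730905-20734496 (plus strand) and *Trdc* at chr14:54142851-54148868 (plus strand).

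The WT library held 63 T cell barcodes of 3467, a share of 1.82% (1.40 to 2.32). In the *Clec7a*-/- library they numbered 142 of 3080, a share of 4.61% (3.90 to 5.41), and the log2 ratio of the shares was 1.34 (0.91 to 1.80). T cell barcodes were shallower than the others, with medians of 2223 UMIs (WT) and 1750 UMIs (*Clec7a*-/-) against 3270.5 and 2768.5. With every barcode thinned to 1000 UMIs before the rule was applied, the WT share was 1.26% (0.90 to 1.72), the *Clec7a*-/- share was 3.38% (2.72 to 4.15), and their log2 ratio was 1.42 (0.86 to 2.0). Which cells pass a CD11b and CD11c sort sets this share as well, so it is a share of the sorted cells. Of the barcode sequences, 17 occurred in both libraries, 1 of them as a T cell barcode, in the *Clec7a*-/- library. Doublets were not removed: 16 WT and 23 *Clec7a*-/- T cell barcodes held at least 3 of 6 markers of another class, mostly neutrophil markers in WT (14 barcodes) and neutrophil and macrophage markers in *Clec7a*-/- (13 and 7 barcodes). Here and below, another class leaves out the innate lymphoid and natural killer classes. At least 3 of 6 innate lymphoid markers were found in 16 of 63 WT and 26 of 142 *Clec7a*-/- T cell barcodes. The label of T cells held up against 12 other T cell identity genes, among them *Lck*, a kinase of receptor signalling, and *Thy1*, since at least 3 of the 12 were found in 43 of 63 WT and 87 of 142 *Clec7a*-/- T cell barcodes and in 12 and 16 of all other barcodes. Of 6 natural killer cell markers, 5 had no UMI in the T cell barcodes of either library.

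*Icos*, *Il2ra* and *Ctla4* were the most widely detected members, in 155, 107 and 101 of the 205 T cell barcodes. *Foxp3* was found in 80, beside 86 for *Cd4* and 79 for *Gzmb*. At least 1 of *Foxp3*, *Icos*, *Ctla4* and *Il2ra* was found in 186 of the 205. *Foxp3* had 100 UMIs in 28 of the 63 WT T cell barcodes, a share of 44.4% (31.9 to 57.5), and 124 UMIs in 52 of the 142 *Clec7a*-/- ones, a share of 36.6% (28.7 to 45.1). *Foxp3* stood at 485 CPM (395 to 590.0) over all WT and 361 CPM (300.3 to 430.4) over all *Clec7a*-/- T cell barcodes. Outside the T cell barcodes *Foxp3* was found in 0.264% of the WT and 0.34% of the *Clec7a*-/- barcodes, at 1.15 and 1.13 CPM, so the T cell barcodes of either library stood far above the rest. The log2 ratio of the *Foxp3* level in T cell over other barcodes was 8.72 (7.99 to 9.53) in WT and 8.31 (7.49 to 9.26) in *Clec7a*-/-.

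*Icos* was the member found in most T cell barcodes. *Icos* had 276 UMIs in 50 of the 63 WT T cell barcodes, a share of 79.4% (67.3 to 88.5), and 548 UMIs in 105 of the 142 *Clec7a*-/- ones, a share of 73.9% (65.9 to 80.9). *Icos* stood at 1339 CPM (1186 to 1506) over all WT and 1595 CPM (1465 to 1735) over all *Clec7a*-/- T cell barcodes. It was found in most T cell barcodes of either library. Outside, it was found in 0.764% of the WT and 1.09% of the *Clec7a*-/- barcodes, at 2.94 and 3.84 CPM, and the log2 ratio of T cell over other barcodes was 8.83 (8.38 to 9.32) in WT and 8.7 (8.25 to 9.18) in *Clec7a*-/-. Levels are not compared between genes, since capture differs between them.

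*Ctla4* had 117 UMIs in 33 of the 63 WT T cell barcodes, a share of 52.4% (39.4 to 65.1), and 260 UMIs in 68 of the 142 *Clec7a*-/- ones, a share of 47.9% (39.4 to 56.4). *Ctla4* stood at 568 CPM (469 to 680.2) over all WT and 757 CPM (668 to 855) over all *Clec7a*-/- T cell barcodes. The intervals of the shares overlap, and those of the levels do so narrowly. *Ctla4* and *Icos* are neighbours on chromosome 1, and both were about as rare outside the T cell barcodes, where *Ctla4* was found in 0.646% of the WT and 1.12% of the *Clec7a*-/- barcodes, at 2.23 and 4.36 CPM. For *Ctla4* the log2 ratio of T cell over other barcodes was 7.99 (7.43 to 8.58) in WT and 7.44 (7.0 to 7.91) in *Clec7a*-/-.

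*Il2ra* had 199 UMIs in 41 of the 63 WT T cell barcodes, a share of 65.1% (52 to 76.7), and 205 UMIs in 66 of the 142 *Clec7a*-/- ones, a share of 46.5% (38.1 to 55). *Il2ra* stood at 965 CPM (836 to 1109) over all WT and 597 CPM (518 to 684) over all *Clec7a*-/- T cell barcodes. Both its share and its level were higher in the WT library, where the barcodes were also deeper. Unlike the 3 genes above, *Il2ra* had most of its UMIs outside, with 46.1% of them in T cell barcodes, against 87.8% for *Foxp3*, 90.2% for *Icos* and 81.6% for *Ctla4*. The log2 ratio of its level in T cell over other barcodes was accordingly smaller, 6.15 (5.86 to 6.44) in WT and 4.72 (4.45 to 4.99) in *Clec7a*-/-.

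**Figure D1:**
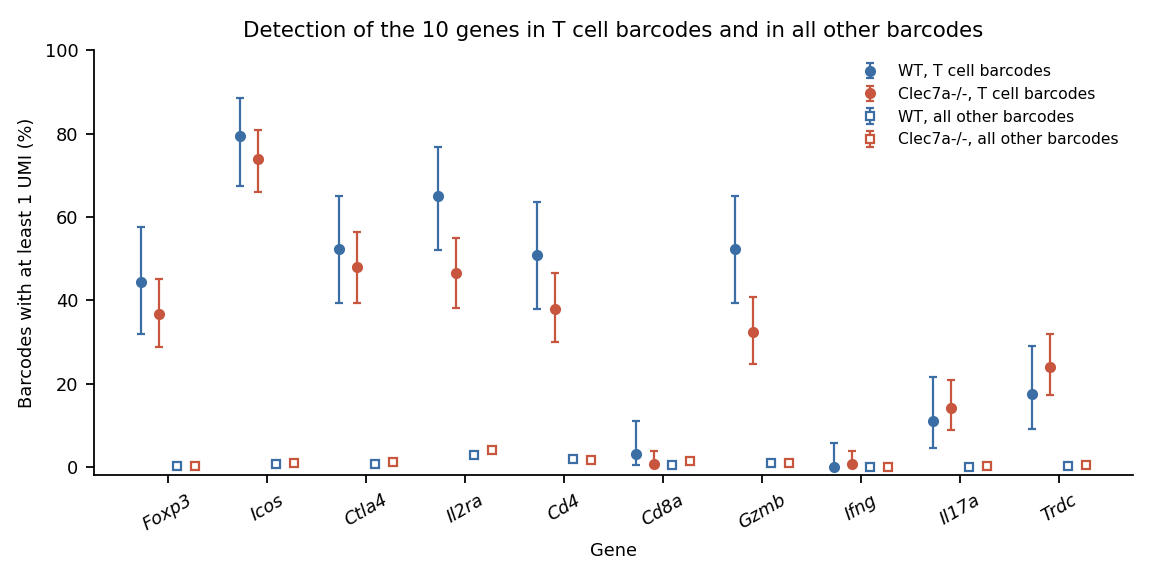
Share of barcodes with at least 1 UMI of each gene (y axis, percent, not thinned), with 95% exact binomial intervals, in T cell barcodes (filled circles) and all other barcodes (open squares) of the WT (blue) and *Clec7a*-/- (red) library. *Icos* was found in 79.4% and 73.9% of T cell barcodes, *Cd8a* and *Ifng* in at most 3.17%, and no gene in more than 3.98% of the other barcodes.

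Of the coreceptors, *Cd4* was common in T cell barcodes and *Cd8a* was close to absent. *Cd4* had 68 UMIs in 32 of the 63 WT T cell barcodes, a share of 50.8% (37.9 to 63.6), and 141 UMIs in 54 of the 142 *Clec7a*-/- ones, a share of 38% (30 to 46.5). *Cd4* stood at 329.9 CPM (256 to 418) over all WT and 410.5 CPM (346 to 484) over all *Clec7a*-/- T cell barcodes. The share was the higher one in WT and the level in *Clec7a*-/-, each with overlapping intervals. A share of 44% of the *Cd4* UMIs lay in T cell barcodes. The log2 ratio of its level in T cell over other barcodes was 5.03 (4.6 to 5.45) in WT and 5.45 (5.07 to 5.82) in *Clec7a*-/-, and the UMIs outside are described with the other cell classes. *Cd8a* had 3 UMIs in 2 WT and 2 UMIs in 1 *Clec7a*-/- T cell barcode, and *Cd8b1*, the second chain of the CD8 heterodimer, had 1 and 2 UMIs. A UMI of *Cd8a* or *Cd8b1* was found in 5 of 205 (2.44%, 0.797 to 5.6) T cell barcodes. The *Cd8a* share of 3.17% (0.39 to 11.0) in WT and 0.70% (0.018 to 3.86) in *Clec7a*-/- T cell barcodes had intervals that overlap those of the other barcodes, 0.47% (0.27 to 0.76) and 1.40% (1.00 to 1.89). The log2 ratio of its level in T cell over other barcodes was 3.19 (0.82 to 4.9) in WT and 0.48 (-2.61 to 2.41) in *Clec7a*-/-, the WT value resting on 3 UMIs. Both coreceptor genes lie on chromosome 6, as does *Clec7a*.

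Among the effector members, *Gzmb* was about as common as *Cd4*, *Il17a* and *Trdc* marked a smaller set, and *Ifng* was almost undetected. *Gzmb* had 247 UMIs in 33 of the 63 WT T cell barcodes, a share of 52.4% (39.4 to 65.1), and 323 UMIs in 46 of the 142 *Clec7a*-/- ones, a share of 32.4% (24.8 to 40.8). *Gzmb* stood at 1198 CPM (1053 to 1357) over all WT and 940.3 CPM (841 to 1049) over all *Clec7a*-/- T cell barcodes. The WT library had the higher share and level. A single WT barcode carried 112 of its 247 WT UMIs, and without it the WT level was 669 CPM. The median was 2 UMIs in the WT and 2.5 UMIs in the *Clec7a*-/- barcodes that held *Gzmb*, so most of them held little of it. *Gzmb* was found outside in 1.03% of the WT and 0.885% of the *Clec7a*-/- barcodes, at 16.9 and 21.9 CPM, and the log2 ratio of its level in T cell over other barcodes was 6.15 (5.89 to 6.4) in WT and 5.42 (5.18 to 5.67) in *Clec7a*-/-.

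*Ifng* had no UMI in the 63 WT T cell barcodes, which allows a share of up to 4.76%, and 1 UMI in the 142 *Clec7a*-/- ones. The other 14 of its 15 UMIs lay in 6 other barcodes, 8 of them in 1 WT barcode. At this depth a difference in *Ifng* between the libraries was not detectable.

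*Il17a* had 82 UMIs in 7 of the 63 WT T cell barcodes, a share of 11.1% (4.59 to 21.6), and 128 UMIs in 20 of the 142 *Clec7a*-/- ones, a share of 14.1% (8.82 to 20.9). *Il17a* stood at 398 CPM (316 to 494) over all WT and 373 CPM (311 to 443) over all *Clec7a*-/- T cell barcodes. Few barcodes held it, at similar shares and levels in both libraries. Outside the T cell barcodes it had 1 UMI in WT and 20 UMIs in 4 *Clec7a*-/- barcodes. *Trdc* had 99 UMIs in 11 of the 63 WT T cell barcodes, a share of 17.5% (9.05 to 29.1), and 237 UMIs in 34 of the 142 *Clec7a*-/- ones, a share of 23.9% (17.2 to 31.8). *Trdc* stood at 480.2 CPM (390.3 to 585) over all WT and 690.0 CPM (605 to 784) over all *Clec7a*-/- T cell barcodes. The *Clec7a*-/- library had the higher level, with overlapping intervals of the shares. *Trdc* was found outside in 0.176% of the WT and 0.408% of the *Clec7a*-/- barcodes, at 0.83 and 2.97 CPM. The log2 ratio of the level in T cell over other barcodes was 9.18 (8.34 to 10.14) in WT and 7.86 (7.34 to 8.43) in *Clec7a*-/- for *Trdc* and 12.61 (10.09 to 17.93) in WT and 7.74 (7.05 to 8.5) in *Clec7a*-/- for *Il17a*, the former of the 2 *Il17a* values resting on 1 UMI outside. In WT both genes leaned on the same barcode of 11201 UMIs, which held 36 of the 82 *Il17a* UMIs, 41 of the 99 *Trdc* UMIs and 24 of the 199 *Il2ra* UMIs.

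**Figure D2:**
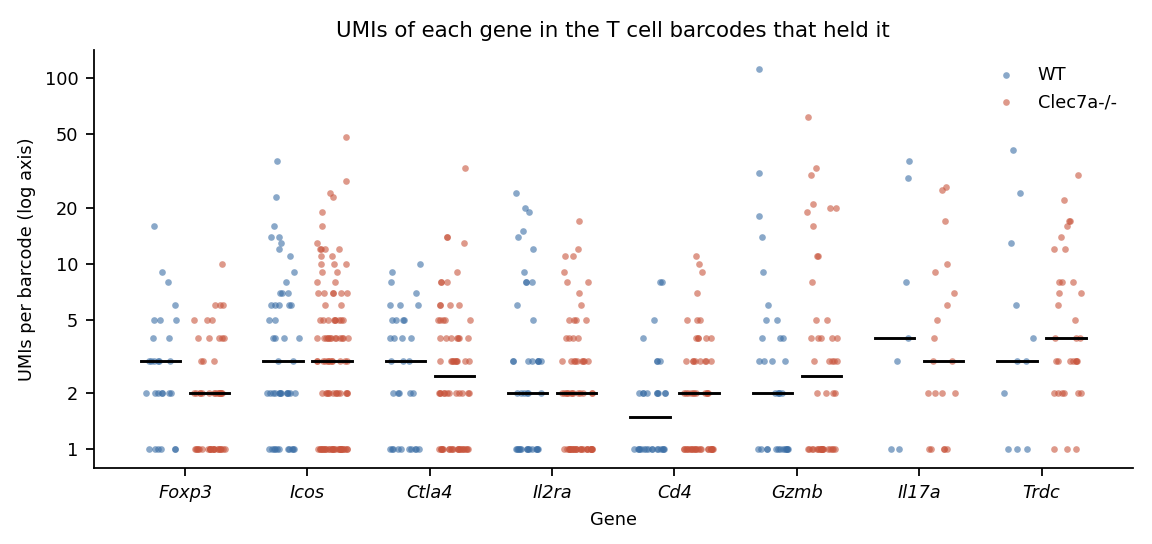
UMIs of each gene per barcode (y axis, log scale) in the T cell barcodes that held it, 1 point per barcode, WT in blue and *Clec7a*-/- in red, with a black line at the median; *Cd8a* and *Ifng*, with at most 2 barcodes per library, are left out. Medians lay between 1.5 and 4 UMIs, and the point at 112 UMIs is the WT barcode that held 45.3% of the WT *Gzmb* UMIs in T cells.

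Detection in the T cell barcodes was set against the 1540 barcodes with neutrophil markers, which should lack T cell genes and serve as the background of detection. There *Foxp3* was found in 0.26% (0.071 to 0.66), *Icos* in 0.97% (0.55 to 1.60), *Ctla4* in 0.39% (0.14 to 0.85), *Il2ra* in 0.71% (0.36 to 1.27), *Cd4* in 0.065% (0.0016 to 0.36), *Gzmb* in 0.32% (0.11 to 0.76) and *Trdc* in 0.065% (0.0016 to 0.36), while *Cd8a*, *Ifng* and *Il17a* had no UMI. Their median depth was 3004 UMIs in WT and 1369 UMIs in *Clec7a*-/-, and every share of the 8 common members in T cell barcodes lay above this background. Of the members, 8 had at least 100 UMIs over both libraries, and all 8 had a level at least 2-fold higher in T cell than in other barcodes in both libraries, which held for 11.9% of the 9497 genes with as many UMIs. Genes of T cells were bound to reach this, since the barcodes were chosen by genes of the same cell type.

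Between the genotypes, *Il2ra* was at the lower and *Trdc* at the higher level over all *Clec7a*-/- T cell barcodes. For *Trdc* both the size and the direction of the difference depended on the barcodes kept. Over the T cell barcodes, 8 of the 10 members had at least 20 UMIs, and 0 of the 8 were at least 2-fold higher or lower in *Clec7a*-/-. Of the 4564 genes with at least 20 UMIs there, 4.4% were at least 2-fold higher and 3.02% at least 2-fold lower, with a pseudocount of 0.5 UMI, so a count of 0 among 8 lies near the background. The median log2 ratio was 0.077 over the 8 members and 0.0076 over all 4564 genes.

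The level of *Foxp3* gave a log2 ratio of -0.43 (-0.82 to -0.031), that of *Icos* 0.25 (0.042 to 0.47) and that of *Ctla4* 0.42 (0.10 to 0.74). *Il2ra* had the largest difference among the 8, -0.69 (-0.98 to -0.41), the lower level in *Clec7a*-/-. For *Cd4* the ratio was 0.32 (-0.11 to 0.75) and for *Il17a* -0.094 (-0.51 to 0.32), and both intervals include 0. *Gzmb* gave -0.35 (-0.59 to -0.10) and *Trdc* 0.52 (0.18 to 0.88). The intervals treat UMIs as independent although a barcode can hold many of 1 gene, and the last 3 depended on single barcodes. Without the barcode richest in the gene in each library, the ratio of *Gzmb* was 0.23 (-0.072 to 0.54), that of *Il17a* 0.34 (-0.18 to 0.87) and that of *Trdc* 1.05 (0.62 to 1.49). With the study's filter on barcodes (200 to 4000 genes and at most 5% mitochondrial UMIs), which kept 50 WT and 104 *Clec7a*-/- T cell barcodes, *Gzmb* gave 0.19 (-0.18 to 0.56), *Il17a* -0.93 (-1.41 to -0.45) and *Trdc* -0.011 (-0.39 to 0.37), so the direction of these 3 genes between the libraries was not settled. Markers of other cells moved with genotype in the same barcodes: the summed level of 6 neutrophil markers was 2872 CPM in WT and 984 CPM in *Clec7a*-/- T cell barcodes, with no marker at 0, and that of 6 macrophage markers was 77.6 and 1840 CPM, with 3 and 1 of 6 at 0. Their part in the differences was not tested. Without the T cell barcodes that held at least 3 of 6 markers of another class, the ratio was -0.42 (-0.86 to 0.018) for *Foxp3*, 0.21 (-0.020 to 0.45) for *Icos*, 0.54 (0.18 to 0.91) for *Ctla4*, -0.60 (-0.91 to -0.28) for *Il2ra* and 1.31 (0.88 to 1.77) for *Trdc*, the last beyond 2-fold.

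**Figure D3:**
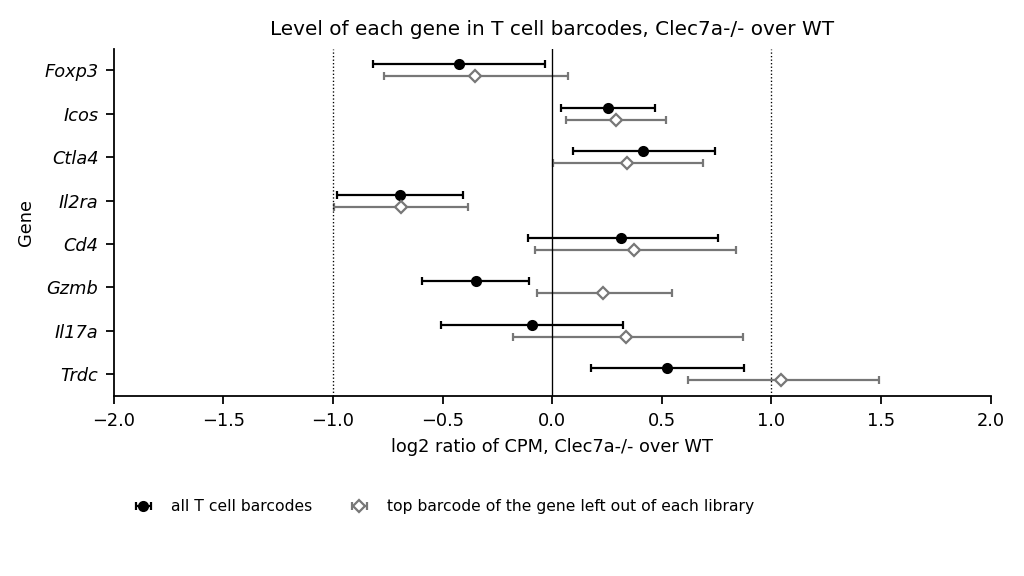
log2 ratio of the CPM of each gene in T cell barcodes, *Clec7a*-/- over WT (x axis), with 95% exact conditional intervals for counting error, for all T cell barcodes (black circles) and without the barcode richest in the gene in each library (grey diamonds); dotted lines mark 2-fold. *Foxp3*, *Icos*, *Ctla4*, *Il2ra* and *Cd4* stay in place, whereas *Gzmb* moves from -0.35 to 0.23 and *Trdc* from 0.52 to 1.05.

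The share of T cell barcodes with each member was compared at 1 depth, since WT T cell barcodes were the deeper ones. With barcodes thinned to 1000 UMIs, leaving out 7 WT and 27 *Clec7a*-/- shallower T cell barcodes, *Foxp3* was found in 39.3% (26.5 to 53.2) of 56 WT and 27% (19.1 to 36) of 115 *Clec7a*-/- barcodes. *Icos* was found in 64.3% (50.4 to 76.6) and 64.3% (54.9 to 73.1), *Ctla4* in 39.3% (26.5 to 53.2) and 40% (31 to 49.6), and *Il2ra* in 44.6% (31.3 to 58.5) and 38.3% (29.4 to 47.8). *Cd4* was found in 26.8% (15.8 to 40.3) and 26.1% (18.3 to 35.1), and *Gzmb* in 37.5% (24.9 to 51.5) and 28.7% (20.6 to 37.9). For *Il17a* the shares were 12.5% (5.18 to 24.1) and 12.2% (6.82 to 19.6), and for *Trdc* 14.3% (6.38 to 26.2) and 19.1% (12.4 to 27.5). The interval of the KO over WT ratio included 0 on the log2 scale for all 8 members, from -0.54 (-1.38 to 0.31) for *Foxp3* to 0.42 (-0.80 to 1.8) for *Trdc*, widths that leave room for a 2-fold difference in some of them. For *Gzmb* the unthinned shares, 52.4% and 32.4%, had differed by this interval. The interval takes the counts as rates and is wider than a binomial one for shares this large. *Il2ra*, with unthinned shares of 65.1% and 46.5%, was not set apart by it.

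*Foxp3* on one side and *Trdc* and *Il17a* on the other were found in sets of T cell barcodes that hardly overlapped. *Foxp3* was found in 80 of 205 (39%, 32.3 to 46.1) and *Trdc* or *Il17a* in 53 of 205 (25.9%, 20 to 32.4) T cell barcodes of both libraries, and 1 barcode held *Foxp3* with either of them. In WT these were 28 and 13 barcodes with an overlap of 0, and in *Clec7a*-/- 52 and 40 with an overlap of 1. No barcode held both *Foxp3* and *Trdc*, 0 of the 80 with *Foxp3*, which allows a share of up to 3.75%, and none held *Cd4* and *Trdc*, 0 of the 86 with *Cd4*, which allows up to 3.49%. *Trdc*, by contrast, was found in 36% (27.6 to 45.1) of the barcodes without *Foxp3*. Of the 27 barcodes with *Il17a*, 19 also held *Trdc*, and 5 held *Cd4*. *Il17a* was found in 19 of 45 barcodes with *Trdc* (42.2%, 27.7 to 57.8) and 8 of 160 without it (5%, 2.18 to 9.61). By library, 5 of 11 WT and 14 of 34 *Clec7a*-/- barcodes with *Trdc* held *Il17a*.

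*Foxp3* went with *Ctla4* and, less clearly, with *Cd4*. *Ctla4* was found in 52 of 80 barcodes with *Foxp3* (65%, 53.5 to 75.3) and 49 of 125 without it (39.2%, 30.6 to 48.3), and *Cd4* in 48 of 80 barcodes with *Foxp3* (60%, 48.4 to 70.8) and 38 of 125 without it (30.4%, 22.5 to 39.3). Those 125 include 52 with *Trdc* or *Il17a*, of which 4 held *Cd4*. In the 73 with none of *Foxp3*, *Trdc* and *Il17a*, *Cd4* was found in 46.6% (34.8 to 58.6) and *Ctla4* in 41.1% (29.7 to 53.2). Against the barcodes with *Foxp3*, the intervals overlapped for *Cd4* and were narrowly apart for *Ctla4*. Within each library the *Ctla4* intervals overlapped. The shares with *Foxp3* and with none of the 3 genes were 64.3% (44.1 to 81.4) and 45.5% (24.4 to 67.8) in WT. In *Clec7a*-/- they were 65.4% (50.9 to 78.0) and 39.2% (25.8 to 53.9). *Icos* was common on both sides, in 68 of 80 barcodes with *Foxp3* (85%, 75.3 to 92) and 87 of 125 without it (69.6%, 60.7 to 77.5), and *Il2ra* differed less, in 45 of 80 barcodes with *Foxp3* (56.2%, 44.7 to 67.3) and 62 of 125 without it (49.6%, 40.5 to 58.7). *Gzmb* was found in 39 of 80 barcodes with *Foxp3* (48.8%, 37.4 to 60.2) and 40 of 125 without it (32%, 23.9 to 40.9), so 39 of the 79 T cell barcodes with *Gzmb* also held the regulatory factor. All of *Foxp3*, *Icos*, *Ctla4* and *Il2ra* stood together in 28 of 205 (13.7%, 9.27 to 19.1) barcodes, and 7 barcodes held none of the 10 members. Barcodes with *Foxp3* were somewhat deeper, with a median of 2073 UMIs against 1670 UMIs without it. After thinning to 1000 UMIs, *Ctla4* was found in 31 of 53 barcodes with *Foxp3* (58.5%, 44.1 to 71.9) and 37 of 118 without it (31.4%, 23.1 to 40.5), with the intervals still apart, whereas for *Cd4*, at 37.7% (24.8 to 52.1) and 21.2% (14.2 to 29.7), and *Gzmb*, at 39.6% (26.5 to 54) and 28% (20.1 to 37), they overlapped. The thinned data kept no barcode with *Foxp3* and *Trdc* or with *Cd4* and *Trdc*.

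**Figure D4:**
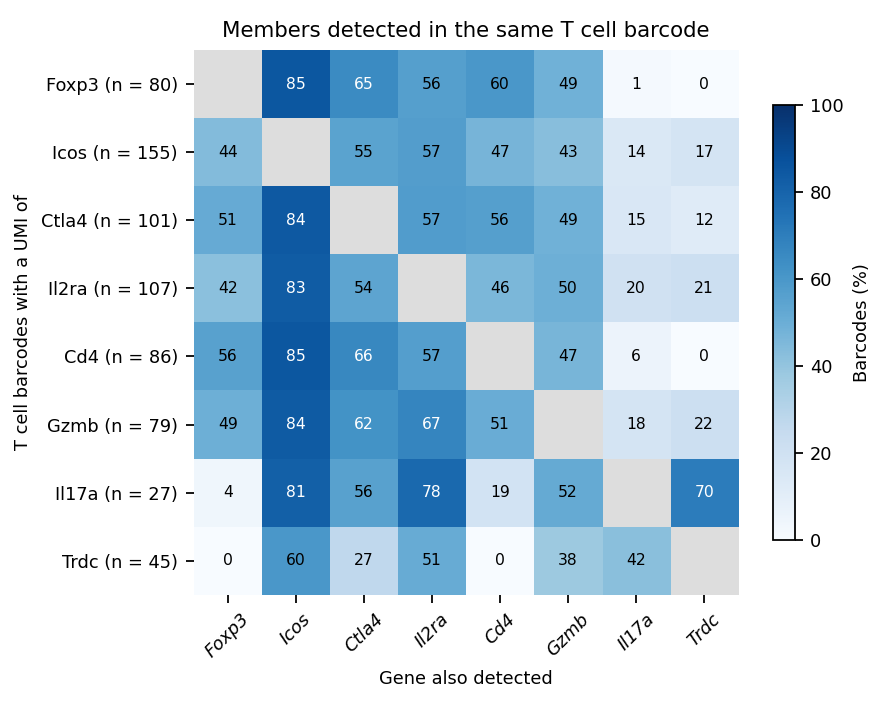
Percent of the T cell barcodes with a UMI of the row gene (n in parentheses, both libraries, not thinned) that also held the column gene; the diagonal is grey. *Trdc* and *Il17a* stand apart from *Foxp3* and *Cd4*, with 0 of 80 *Foxp3* barcodes holding *Trdc*, while *Icos* was found in at least 60% of each of the other 7 rows.

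The 80 barcodes with *Foxp3* and the 52 with *Trdc* or *Il17a* and no *Foxp3* (medians of 2073 and 1828.5 UMIs) also differed in genes that were not used to part them. *Trac* had 263 UMIs in the former and 26 in the latter, a log2 ratio of the CPM of *Foxp3* over *Trdc* or *Il17a* barcodes of 2.33 (1.75 to 2.97), and *Cd3g* had 73 and 101 UMIs, a ratio of -1.48 (-1.93 to -1.03). *Trbc2*, another αβ constant region, differed less than *Trac*, with 422 and 158 UMIs and a ratio of 0.41 (0.14 to 0.68). *Trbc1*, described below, went the other way. *Trac*, *Cd3g* and *Trbc2* were part of the rule that chose T cell barcodes. A barcode without *Trac* had to hold at least 2 of the other rule genes, so the choice of barcodes shapes these ratios. Of the 3480 genes with at least 20 UMIs in these barcodes, 7.93% were at least 2-fold higher with *Foxp3* and 6.78% at least 2-fold lower. Of the regulatory list of 16 genes, 12 were measured, of which 7 were at least 2-fold higher with *Foxp3* and 1 lower, with a median log2 ratio of 1.85 against 0.029 over all genes. Those 7 included *Ikzf2* and *Ikzf4*, which encode the transcription factors Helios and Eos, and *Tnfrsf4* and *Tnfrsf18*, which encode the costimulatory receptors OX40 and GITR. The others were *Il10*, an inhibitory cytokine, and *Il1rl1* and *Klrg1*, which encode the IL-33 receptor and a lectin-like receptor. *Tnfrsf4* was at 335 against 32.5 CPM, a log2 ratio of 3.37 (1.96 to 5.28), and *Ikzf4* at 166 against 8.13 CPM. *Klrg1* had 85 UMIs and *Il1rl1* had 93 UMIs with *Foxp3*, and neither had any among the 123040 UMIs of the *Trdc* or *Il17a* barcodes, which allows up to 24.4 CPM. Both genes reached the minimum of 20 UMIs through the *Foxp3* set alone. A set chosen by *Foxp3* favours regulatory genes by the choice. *Areg*, the gene of the growth factor amphiregulin and on the same list, went the other way, at 56.6 against 260.1 CPM.

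Of the type 17 and γδ list of 14 genes, 6 were measured in these 2 sets and all 6 were at least 2-fold lower with *Foxp3*. They included the γ chain constant regions *Tcrg-C1* and *Tcrg-C2*, *Tmem176a* and *Tmem176b*, and the kinase gene *Blk*. *Tcrg-C1* had 147 UMIs, *Tcrg-C2* had 30 UMIs and *Blk* had 29 UMIs in the *Trdc* or *Il17a* barcodes, and each had 0 in the *Foxp3* barcodes, which allows up to 12.1 CPM. With these zeros set at 3 UMIs the median log2 ratio of the list was -3.84. *Tmem176a* was at 60.6 against 658 CPM. The cytotoxic list had 3 of 12 genes measured, with the granzyme gene *Gzma* at 36.4 against 1447 CPM and the chemokine gene *Ccl5* at 36.4 against 1178 CPM lower with *Foxp3*, and *Ccl4* at 311 against 81.3 CPM higher. The log2 ratio was -5.43 in the WT and -6.78 in the *Clec7a*-/- library for *Gzma* and -7.07 in the WT and -3.76 in the *Clec7a*-/- library for *Ccl5*, although both lay in few barcodes: the 178 *Gzma* UMIs of the *Trdc* or *Il17a* set came from 9 barcodes and the 145 *Ccl5* UMIs from 6. Each had 9 UMIs in the *Foxp3* set, so both reached the minimum of 20 UMIs through the *Trdc* or *Il17a* set. Of the T cell identity list, 4 of 12 measured genes were at least 2-fold higher with *Foxp3*, among them *Lck* and *Cd5*, and 3 were lower, among them *Trbc1*, at 206 against 545 CPM. *Cxcr6*, a chemokine receptor of tissue-resident T cells and 1 of 3 type 1 genes measured, was at 485 against 2032 CPM, *Stat4* of the same list was at least 2-fold higher with *Foxp3*, and *Ccr7*, which directs cells to lymph nodes, was at 287 against 16.3 CPM. In the T cell barcodes with none of *Foxp3*, *Trdc* and *Il17a*, *Ccr7* was higher still, at 625 CPM. *Ccr7* is also on the list of mature dendritic markers. On the checkpoint list 1 of 4 genes was higher and 1, *Pdcd1*, the gene of PD-1, was lower, at 182 against 398 CPM. By library, the ratio was past 2-fold only in *Clec7a*-/- for some of these genes. It was -0.12 in the WT and -1.59 in the *Clec7a*-/- library for *Pdcd1*. For *Stat4* it was -0.061 in the WT and 1.63 in the *Clec7a*-/- library, and for *Ikzf2* 0.16 in the WT and 2.48 in the *Clec7a*-/- library. *Entpd1*, the higher gene of the checkpoint list, had -0.061 in the WT and 1.9 in the *Clec7a*-/- library. *Zap70*, among the lower genes of the T cell identity list, had -0.84 in the WT and -1.91 in the *Clec7a*-/- library. Few UMIs stood behind the WT values, 4 each of *Ikzf2* and *Zap70* and 3 each of *Stat4* and *Entpd1* in the *Trdc* or *Il17a* barcodes. On the naive list 2 of 5 were higher and 0 lower, and on the IL-2 list 1 of 6 was higher and 0 lower. The median log2 ratio was -0.24 for the T cell identity, -4.94 for the cytotoxic, 0.21 for the type 1, -0.23 for the checkpoint, 0.91 for the naive and -0.031 for the IL-2 list. The cytotoxic median rests on 3 genes. *Gzmb*, a member and not on that list, gave -0.22 (-0.52 to 0.097) between the 2 sets. By library, *Gzmb* gave -0.96 in the WT and 0.15 in the *Clec7a*-/- library. These comparisons are between barcodes of pooled mice and not between samples.

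The same lists compared between the genotypes over all T cell barcodes gave no gene at least 2-fold apart in the regulatory (12 measured, median log2 ratio 0.13), T cell identity (12, 0.20) and checkpoint lists (4, -0.18). Over all 4564 genes, 4.4% were at least 2-fold higher and 3.02% lower. Of 6 genes measured on the type 17 and γδ list, 4 were at least 2-fold higher in *Clec7a*-/- and 1 lower. The 4 were *Tcrg-C1*, with 31 UMIs in 9 WT and 125 UMIs in 28 *Clec7a*-/- barcodes and a ratio of 1.27 (0.70 to 1.89), *Blk*, with 1.68 (0.40 to 3.23), and *Tmem176a* and *Tmem176b*, with 1.31 (0.65 to 2.02) and 1.33 (0.69 to 2.03). The last 2 are also expressed by myeloid cells, at 135 and 188 CPM in the other WT barcodes and 169 and 235 CPM in the other *Clec7a*-/- barcodes. Of 4 genes measured on the cytotoxic list, 3 were at least 2-fold lower in *Clec7a*-/-. *Gzma*, with 121 UMIs in 5 WT and 69 UMIs in 7 *Clec7a*-/- barcodes, gave -1.55. Of the WT *Gzma* UMIs, 110 lay in 3 barcodes with *Trdc* or *Il17a*. *Ccl5*, with 129 UMIs in 10 WT and 76 UMIs in 8 *Clec7a*-/- barcodes, gave -1.5 (-1.93 to -1.08). Of the WT *Ccl5* UMIs, 86 lay in 3 barcodes with *Trdc* or *Il17a*. *Ccl4* gave -1.2 (-1.68 to -0.72). *Ccl4* was at a higher level outside the T cell barcodes than in them and lower in *Clec7a*-/- there too, at 824 and 382 CPM outside against 427 and 186 CPM in T cell barcodes, beside the lower level of neutrophil markers in the *Clec7a*-/- T cell barcodes, whose part was not tested. *Gzmk* and *Prf1*, which encodes perforin, had 8 UMIs and 1 UMI in all T cell barcodes, too few to compare. On the type 1 list 1 of 5 was lower, *Cxcr3* with 16 and 10 UMIs, and *Tbx21*, the gene of the factor T-bet, had no UMI in any T cell barcode, which allows up to 5.46 CPM. On the naive list 1 of 7 was lower, *Satb1* with -1.15 (-1.79 to -0.52). On the IL-2 list 1 of 6 was higher, *Socs2* with 1.66 (0.72 to 2.74), which was also one of the mature dendritic markers. *Il2rb*, the β chain of the receptor whose α chain *Il2ra* encodes, was at 1843 and 1741 CPM and gave -0.082 (-0.27 to 0.11), and the common γ chain gene *Il2rg* gave 0.086 (-0.21 to 0.38), and both intervals include 0, unlike that of *Il2ra*. *Il2* itself had 1 UMI in each library. Beside the 0.0076 of all genes, the median log2 ratio was 1.27 for the type 17 and γδ list, -1.34 for the cytotoxic, -0.87 for the type 1, 0.16 for the naive and 0.00024 for the IL-2 list. The lists were compared at the main setting only. They were not recomputed under the study's barcode filter, with which *Trdc* was no longer higher in *Clec7a*-/-.

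Outside the T cell barcodes the members were not spread evenly over cell classes. A barcode was placed in the class with the most of its 6 markers detected, at least 3 of them, which placed 2531 of 3404 WT and 1985 of 2938 *Clec7a*-/- barcodes, 439 and 563 of them with exactly 3. *Cd4* lay mostly in macrophages there: 90.6% of its UMIs outside T cell barcodes lay in the macrophage class, with 241 UMIs in 98 of 1407 barcodes (6.97%, 5.69 to 8.42) and a median depth of 6048 UMIs. It was found in 59 of 830 WT and 39 of 577 *Clec7a*-/- barcodes (7.11%, 5.45 to 9.07, and 6.76%, 4.85 to 9.12), shares whose intervals overlap. *Cd8a* lay in the dendritic classes, with 33 UMIs in 23 of 153 barcodes (15%, 9.77 to 21.7) of the conventional and 20 UMIs in 17 of 797 barcodes (2.13%, 1.25 to 3.39) of the mature class, as some mouse dendritic cells express CD8α.

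*Il2ra* had 297 UMIs in 116 of 797 barcodes (14.6%, 12.2 to 17.2) of the mature dendritic class, 62.8% of its UMIs outside. It was found in 42 of 257 WT and 74 of 540 *Clec7a*-/- barcodes (16.3%, 12 to 21.4, and 13.7%, 10.9 to 16.9) of that class. Over all other barcodes the *Il2ra* level gave a log2 ratio of 0.74 (0.47 to 1.01), higher in *Clec7a*-/-, the opposite direction to that in T cell barcodes, beside a mature dendritic class of 257 WT and 540 *Clec7a*-/- barcodes. *Gzmb* lay in the mast class, with 381 UMIs in 23 of 34 barcodes (67.6%, 49.5 to 82.6), 73.8% of its UMIs outside, at 2411 CPM. It was found in 17 of 26 WT and 6 of 8 *Clec7a*-/- barcodes (65.4%, 44.3 to 82.8, and 75%, 34.9 to 96.8) of the mast class. In each library 1 barcode of that class held much of the *Gzmb* outside, 95 of 265 UMIs in WT and 126 of 251 UMIs in *Clec7a*-/-. For the other 5 members common in T cell barcodes, many of the barcodes outside that held them missed the rule by 1 gene: of the 19 other barcodes with *Foxp3*, 10 held 1 gene of the rule, and so did 26 of 58 with *Icos*, 21 of 55 with *Ctla4*, 4 of 5 with *Il17a* and 11 of 18 with *Trdc*, against 223 of all 6342. In the conventional dendritic class *Ctla4* had 16 UMIs in 10 of 153 barcodes (6.54%, 3.18 to 11.7). The innate lymphoid class had 8 barcodes, of which 4 held *Foxp3*, 4 held *Il2ra* and 3 held *Icos*, while 5 held 1 gene of the rule, and its marker list includes *Il7r* and *Il1rl1*, which T cells also use.

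**Figure D5:**
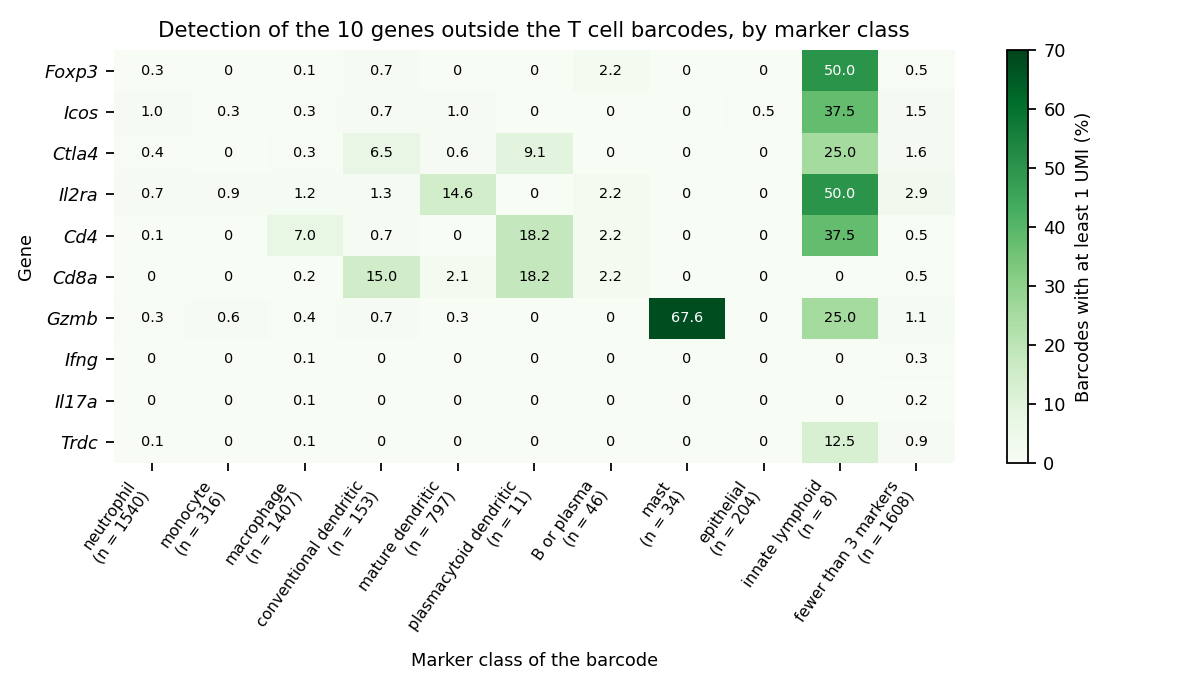
Percent of the barcodes outside the T cell set with at least 1 UMI of each gene, by marker class (n in parentheses, both libraries; barcodes whose classes tied are left out). *Gzmb* reached 67.6% in the mast class, *Cd8a* 15.0% in the conventional dendritic, *Il2ra* 14.6% in the mature dendritic and *Cd4* 6.97% in the macrophage class, while the innate lymphoid and plasmacytoid dendritic classes held 8 and 11 barcodes.

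For each member found in at least 20 T cell barcodes, the 3 genes with the largest ratio between T cell barcodes with and without it were named, among genes with at least 20 UMIs and 5 shared barcodes. For *Foxp3* they were *Klrg1* with 85 UMIs with *Foxp3* and 10 without, *Il1rl1* with 93 and 11, and *Ermn* with 26 and 3 UMIs, log2 ratios of 3.31, 3.31 and 3.21. *Klrg1* was shared with *Foxp3* in 13 of 28 WT and 18 of 52 *Clec7a*-/- barcodes, so both libraries carried it. *Ermn* also led for *Ctla4*, with 27 and 2 UMIs, followed by *Sesn1* and *Dnajc15*. For *Icos* they were the proliferation genes *Ube2c*, *Rrm2* and *Pclaf*, with 91, 82 and 72 UMIs in barcodes with *Icos* and 0 in the 50 without it. These came from 21, 17 and 22 barcodes, and barcodes with *Icos* were deeper, with a median of 1979 UMIs against 1604 UMIs. For *Trdc* they were *Cd163l1*, the gene of a scavenger receptor of IL-17-producing γδ T cells, with 68 and 0 UMIs, *Abi3bp* with 30 and 1 UMIs, and *Gzma* with 178 and 12 UMIs. *Cd163l1* was shared with *Trdc* in 5 of 11 WT and 16 of 34 *Clec7a*-/- barcodes, and it also led for *Il17a*, with 45 and 23 UMIs, followed by *Plod2* and *Tcrg-C2*. For *Il2ra* they were *Lum*, *Arl14ep* and *Serpine2*, and for *Gzmb* *Serpine2*, *Lum* and *Snhg6*, with *Lum* and *Serpine2* shared in only 7 to 10 barcodes. For *Cd4* they were *Ccr9*, a gut-homing chemokine receptor, with 31 and 5 UMIs in 9 and 4 barcodes, then *Armc10* and *Nrn1*. These genes were picked as the largest of 4473 ratios for *Foxp3* and of similar numbers for the others, and ratios picked in this way are large by the choice.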

How the data were processed

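CD11b+ and CD11c+ cells from colorectal polyps were measured by 3′ single-cell RNA-seq, 1 library per genotype. Per the labels, library preparation used a SeekOne MM kit, although another field of the labels names 10x Genomics. The submitters' processing notes list Cell Ranger 2.1.1 and the build mm10. The authors deposited raw UMI counts per gene and barcode, without normalization, for 32285 genes, with 15869215 UMIs in 3467 WT and 11808230 UMIs in 3080 *Clec7a*-/- barcodes. All deposited barcodes were used, and no doublet caller was run. Members' UMIs were summed over barcodes and divided by all UMIs of the same barcodes. Shares were also computed after thinning each barcode to 1000 UMIs (seed 1). A count of 0 was given a limit of 3 counts. With 1 library per genotype nothing was tested, and genes at least 2-fold apart were counted (at least 20 UMIs, pseudocount 0.5 UMI). PCR copies are removed by UMIs, but intervals leave out variation between mice and library preparations.

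Genes named are the 10 members, the 5 genes of the rule, genes of 8 lists and the 3 genes most unlike between T cell barcodes with and without each member. The members and lists were chosen with earlier results of these data known. The comparison of barcodes with *Foxp3* against those with *Trdc* or *Il17a*, the minimum of 100 UMIs for levels against other barcodes, and the setting without the richest barcode were chosen after the values were seen. The counting was tested on simulated counts. Gene positions are of GENCODE M21 (GRCm38), and all 15 identifiers of members and rule genes matched. Promoters are RefSeq windows, found for 7 of 10 members. Alternatives were the study's barcode filter, 3 of the 5 rule genes, T cell barcodes with markers of another class left out, other thinning depths, means over barcodes, TMM scaling, at least 50 UMIs and a pseudocount of 5 UMIs. Python 3.11.15, NumPy 2.4.6, SciPy 1.17.1, pandas 2.3.3, matplotlib 3.10.9 and edgeR 4.0.16 (TMM factors only) were used. *Clec7a* was not analysed, and 1 gene of the type 17 and γδ list, counted in its totals, is not reported here.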

Additional observations from a re-analysis of the deposited data

How the results depend on the processing

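The log2 ratio of the T cell share stayed between 1.22 (at least 3 of the 5 rule genes) and 1.52 (T cell barcodes with markers of another class left out) under all 5 alternatives, 1 of them, without the 17 barcodes found in both libraries (1.33), added after the data were seen. Members at least 2-fold higher in T cell than in other barcodes in both libraries remained 8 of 8 in number under each of 4 alternatives, but 28 of 76 single ratios of T cell over other barcodes moved beyond counting error. *Gzmb* moved from 5.42 to 7.73 in *Clec7a*-/- and from 6.15 to 5.5 in WT with the study's filter, which turned the order of the libraries. With at least 3 rule genes, *Foxp3* in *Clec7a*-/- moved from 8.31 to 6.69 and *Icos* from 8.7 to 6.97. Barcodes with *Foxp3* and *Trdc* or with *Cd4* and *Trdc* remained 0. The number of members at least 2-fold apart between genotypes, 0, became 1 when T cell barcodes with markers of another class were left out and 1 when the barcode richest in the member was left out, both times through *Trdc* (1.31 and 1.05). Of the single ratios between genotypes, *Gzmb* changed sign, from -0.35 to 0.19 with the study's barcode filter and to 0.23 without the richest barcodes, and so did *Trdc*, from 0.52 to -0.011 with that filter; the cause was not tested beyond the 1 WT barcode with 112 *Gzmb* UMIs. *Il17a*, whose interval includes 0, went from -0.094 to -0.93 with that filter, 0.74 without barcodes with markers of another class, 0.34 without the richest barcodes and 0.40 as a mean over barcodes. *Foxp3* and *Il2ra* stayed below 0, and *Icos* and *Ctla4* above 0, under all 6 alternatives. The number of members whose interval for the ratio of shares left out 0 was 0 at every thinning depth and 1 without thinning (*Gzmb*). That interval is wide for large shares, so this count can miss members. Genes at least 2-fold higher and lower over all T cell barcodes, 201 and 138, became 40 and 24 with at least 50 UMIs (2162 genes tested), and 60 higher with a pseudocount of 5 UMIs. TMM scaling moved every ratio down by 0.02. No paired analysis was possible because each genotype has 1 library. Depth limits *Cd8a* and *Ifng*, with 5 UMIs and 1 UMI in all T cell barcodes.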
